A study of Mus musculus with 12 samples.

Results

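The carbonic anhydrase genes described here are Car2, Car3, Car4, Car5b, Car9, Car12, Car13 and Car14, followed across 12 RNA sequencing libraries of mouse back skin. These 8 genes are 8 of the 16 carbonic anhydrase genes of the mouse annotation and 8 of the 52636 gene rows of the count table, and each matched 1 row by its Ensembl identifier. They were chosen by their measured changes among these libraries, with no stated limit, so their values are given as a description and no test is drawn from them. Car8, which was not among those chosen, also changed by more than 2-fold between LL37 and control skin, and Car6 and Car11 stood at higher levels than Car2, so the choice did not take every gene that moved or every gene that was abundant. The other 8 genes of the family were not chosen and carry the tests. They were left out with the same libraries known, so these tests are not independent of the choice.

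The skin came from 8-week-old BALB/c mice in 4 groups of 3 libraries. Control mice received injections of vehicle into the dermis of the back over 2 days, and LL37 mice received the cathelicidin peptide LL37 in the same way, which gives a rosacea-like inflammation. Control + RAPA and LL37 + RAPA mice were also given rapamycin, an inhibitor of the kinase complex mTORC1. It was injected into the peritoneum at 4 mg/kg per day. Mice of the first 2 groups were given vehicle and no rapamycin. No gene was altered in any group, the model covers 2 days only, and the labels do not say whether the skin was taken with the muscle and fat under it.

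Carbonic anhydrases are zinc enzymes that turn carbon dioxide and water into bicarbonate and a proton, and back. Their forms differ in where they work: Car9, Car12 and Car14 span the plasma membrane with the active site outside, Car4 is held on the outer surface by a lipid anchor, Car2, Car3 and Car13 are cytosolic, and Car5b is mitochondrial. The outer forms work beside transporters that carry bicarbonate, protons and lactate across the membrane. Car9 is known as a target of the hypoxia-inducible factor HIF-1, Car12 is also found raised in hypoxic tumours, and Car3 is known for its abundance in fat and skeletal muscle.

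Sequence before the start sites is shown for the 3 transmembrane forms, Car9 as a known HIF-1 target beside its relatives, and for Car5b, because these windows differ in how often they hold the core letters that HIF-1 binds. The windows reach from 250 bases before to 50 bases after a start site and come from RefSeq on GRCm38.p6, which held 5 of the 8 genes (Car4, Car5b, Car9, Car12 and Car14) and not Car2, Car3 or Car13. Capitals mark the core of the hypoxia response element (ACGTG or GCGTG, or CACGT or CACGC on the other strand) and the AP-1 site (TGAGTCA, or TGACTCA on the other strand). No match of these motifs overlapped another in the stretches shown. A stretch of 90 bases before the GENCODE start of Car9, 30 bases around its core match, the last 100 bases before the RefSeq start of Car12, the last 100 before that of Car14 and 165 bases before that of Car5b read as follows.
Car9, chr4:43506876-43506965, plus strand: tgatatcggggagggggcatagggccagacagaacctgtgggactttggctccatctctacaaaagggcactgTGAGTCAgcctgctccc
Car9, chr4:43506995-43507024, plus strand: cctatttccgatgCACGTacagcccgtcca
Car12, chr9:66713586-66713685, plus strand: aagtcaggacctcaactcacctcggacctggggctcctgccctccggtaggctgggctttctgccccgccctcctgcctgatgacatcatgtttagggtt
Car14, chr3:95904686-95904785, minus strand: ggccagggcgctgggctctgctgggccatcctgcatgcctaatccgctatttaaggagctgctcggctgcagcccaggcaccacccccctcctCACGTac
Car5b, chrX:164028046-164028210, minus strand: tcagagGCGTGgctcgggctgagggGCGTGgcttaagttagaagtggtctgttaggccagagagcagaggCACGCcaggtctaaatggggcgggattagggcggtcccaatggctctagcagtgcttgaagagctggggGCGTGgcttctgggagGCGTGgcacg

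The Car9 window held 1 hypoxia core, 18 bases before the RefSeq start, and 1 AP-1 site, 77 bases before it. The windows of Car14 and Car4 held 1 hypoxia core each, the latter after the start, that of Car5b held 5, and that of Car12 held 0. Of all 32851 windows, 43.8% held the hypoxia core at least 1 time, 8.93% held it at least 3 times, and 5.20% held the AP-1 site. A core match is therefore common, and a match or its absence in this window is a description only.

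The libraries held 15734559 to 23271784 counted reads each, and a floor of 3 counts corresponded to between 0.123 and 0.184 CPM (CPM, TMM-scaled counts on a common library size), which covers counting error only. The study describes the 3 libraries of a group as independent samples and names no batch. Basal keratinocyte markers summed to between 12460 and 21684 CPM and differentiated keratinocyte markers to between 13187 and 26366 CPM, so every library held epidermis. The basal keratinocyte sum itself was largest with LL37, at 21168 to 21684 CPM, against 12526 to 17353 in control skin. The other groups reached at most 16645. The genes of this list did not all move together: by the calling limits given below, 1 of the 6 rose and 1 fell in LL37 vs control. LL37 replicate 3 stood apart from LL37 replicates 1 and 2 on the first principal component (64.4 against 133 and 129, with 68.3% of the variance), and the fold changes of the 8 genes in LL37 vs control are also given without it. Marker sums of other cells moved with LL37 as well: fast skeletal muscle (14 genes) stood at 34151 to 49693 CPM in control skin and 23.1 to 727 in LL37 skin, with Tnnc2 at 0 in all LL37 libraries. In the same groups, adipocyte markers (12 genes) stood at 1855 to 3310 and 548 to 1116 CPM, Schwann cell markers at 305 to 380 and 98.1 to 157, macrophage markers at 408 to 794 and 1401 to 1849, neutrophil markers at 57.5 to 82.2 and 205 to 1038, and hair follicle markers at 6.74 to 9.96 and 14.6 to 18.4 CPM. Hair follicle genes also went both ways, with 2 of the 4 tested called higher and 1 lower in LL37 vs control. The part of all these marker sums in the results below was not tested. Ratios to some of them are given as a description only. In whole skin, fewer cells of a type and less RNA per cell cannot be told apart.

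The quasi-likelihood test of edgeR was run over 17993 genes, and a DEG had to have a Benjamini-Hochberg adjusted p below 0.05 and a log2 fold change beyond 1 in either direction. All 8 chosen genes passed the filter on low counts. In LL37 vs control, 4 of the 8 were called higher and 2 lower, where 8.73% of all tested genes were called higher, 10.8% lower and 19.5% in either direction. The libraries did not overlap for any of the 8, as for 49.7% of all tested genes. Since this contrast entered the choice of the genes, nothing is read from these counts.

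**Figure D1:**
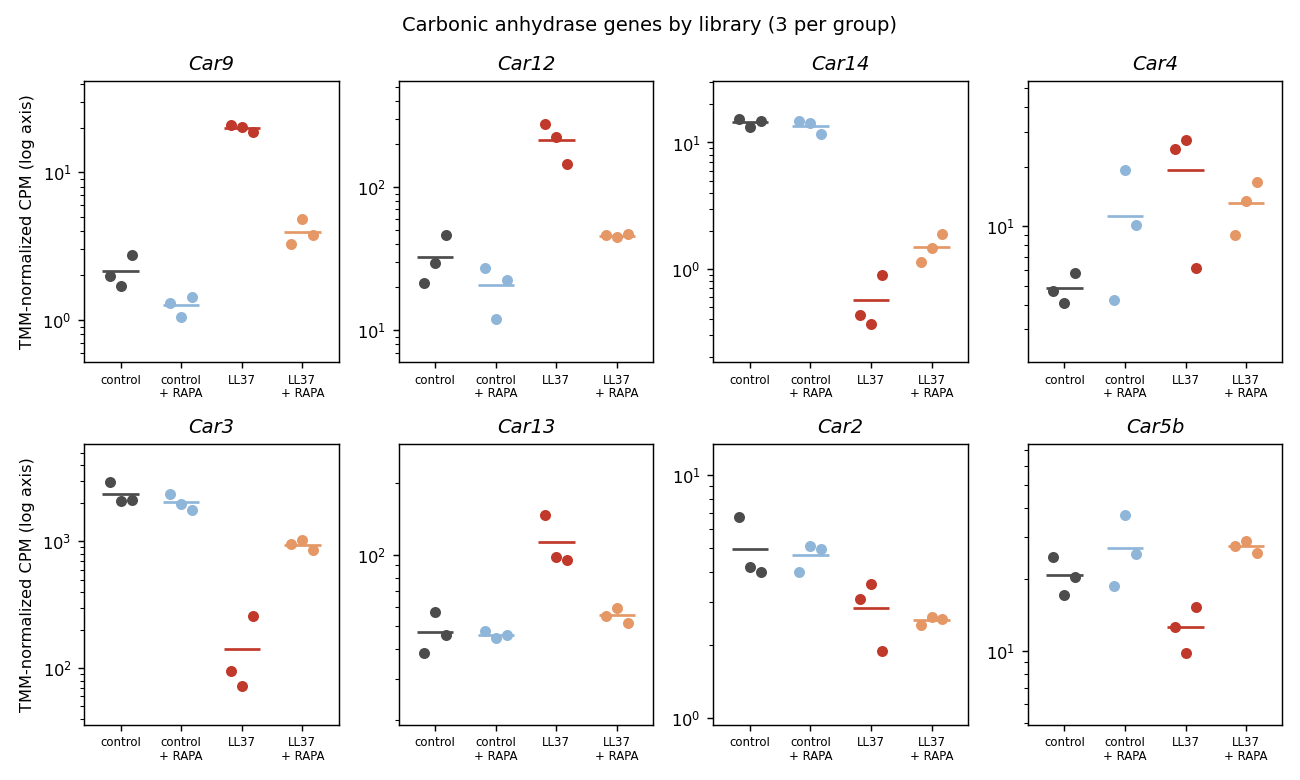
Level of each of the 8 carbonic anhydrase genes in TMM-normalized CPM (log axis) in the 3 libraries of each group, with points for libraries in replicate order and lines for group means. Car9, Car12 and Car13 stand highest in LL37 skin, Car3 and Car14 stand lowest there, and Car4 of LL37 replicate 3 (6.12 CPM) lies near the control libraries.

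Car9 (ENSMUSG00000028463, chromosome 4 from 43506966 to 43513729 on GRCm38), whose core and AP-1 matches are shown above, encodes the transmembrane form that acidifies the space outside hypoxic cells. It stood at 1.99, 1.69 and 2.74 CPM in control skin, 20.8, 20.3 and 18.9 in LL37 skin, 3.27, 4.79 and 3.74 in LL37 + RAPA skin and 1.30, 1.04 and 1.44 in control + RAPA skin. The 4 groups were fully separated, with LL37 highest and control + RAPA lowest, and the LL37 libraries, replicate 3 included, lay within 2 CPM of each other. The level in LL37 skin was 9.31-fold that of control skin (log2 fold change 3.22, standard error 0.21, and 3.29 without LL37 replicate 3) and 5.06-fold that of LL37 + RAPA skin (log2 fold change 2.34, standard error 0.20). With RAPA on both sides the log2 fold change of LL37 was 1.65 (standard error 0.22), and RAPA alone gave -0.77 (standard error 0.23) in control skin. Gm12454, which overlaps Car9 on the other strand, stood at 0.919 to 2.07 CPM in LL37 skin and 0.308 to 0.685 in control skin. The setting for strand is not given in the sources used here, so it is not known how reads from the stretch shared by both genes were counted.

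Car12 (ENSMUSG00000032373, chromosome 9 from 66713686 to 66766845) encodes another transmembrane form with its active site outside, known from epithelia that move bicarbonate. Its control libraries stood at 21.5, 29.7 and 46.6 CPM, its LL37 libraries at 275, 224 and 145, its LL37 + RAPA libraries at 46.0, 44.8 and 46.7 and its control + RAPA libraries at 27.2, 12.1 and 22.5. All LL37 libraries lay above all others, while LL37 + RAPA overlapped the highest control library. The level in LL37 skin was 6.59-fold that of control skin (log2 fold change 2.72, standard error 0.34, and 2.97 without LL37 replicate 3) and 4.69-fold that of LL37 + RAPA skin (log2 fold change 2.23, standard error 0.33). LL37 + RAPA differed from control + RAPA by a log2 fold change of 1.16 (standard error 0.33), a call that was lost without any 1 of the 3 LL37 + RAPA libraries or without control + RAPA replicate 2 or 3, with log2 fold changes between 0.88 and 1.23.

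Car14 (ENSMUSG00000038526, chromosome 3 from 95897768 to 95904691) encodes the third transmembrane form, known from muscle, heart, retina and brain. It was counted in 284, 257 and 281 reads in control skin, 8, 6 and 19 in LL37 skin, 24, 36 and 42 in LL37 + RAPA skin and 272, 289 and 201 in control + RAPA skin. Both LL37 groups lay far below both control groups, and all LL37 + RAPA libraries lay above all LL37 libraries. LL37 skin held 0.566 ± 0.287 CPM (SD, n = 3) against 14.4 ± 1.12 in control skin, 24.6-fold lower (log2 fold change -4.62, standard error 0.29, and -5.11 without LL37 replicate 3). LL37 + RAPA skin held between 1.14 and 1.89 CPM, so that the log2 fold change was -1.36 (standard error 0.31) in LL37 vs LL37 + RAPA and -3.26 (standard error 0.25) in LL37 + RAPA vs control. The call in LL37 vs LL37 + RAPA was lost when only those groups were fitted, at -1.37. Aph1a, which overlaps Car14 on the other strand, stood at 112 to 119 CPM in LL37 skin and 95.7 to 105 in control skin. Any Aph1a reads counted for Car14 would weigh most in the LL37 libraries, where Car14 counts were lowest.

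Relative to the fast muscle markers, the level of Car14 lay in similar ranges in 3 of the groups. It stood at 0.344 ± 0.0391 CPM per 1000 CPM of the fast muscle markers (SD, n = 3) in control skin, 0.299 ± 0.0803 in control + RAPA skin and 0.382 ± 0.179 in LL37 + RAPA skin, where those markers had fallen to between 6.60 and 14.7% of the control mean. In LL37 skin the same ratio was between 1.23 and 18.8, the marker sum having fallen further than Car14 did. Relative to the slow muscle markers (6 genes, all low) the pattern was another, with 637 to 2402 CPM of Car14 per 1000 CPM in control skin and 135 to 275 in LL37 + RAPA skin. The genes whose profiles over the 12 libraries lay nearest to Car14, by root mean square difference of centred log2 CPM, were Capn3 (0.30), Fsd2 (0.32) and Speg (0.34), of which Capn3, a muscle protease, and Speg, a muscle kinase, are best known from skeletal muscle.

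Car4 (ENSMUSG00000000805, chromosome 11 from 84957786 to 84966044) encodes the lipid-anchored form, known from capillary endothelium. It varied widely within the groups other than control. Control libraries stood at 4.69, 4.10 and 5.79 CPM, LL37 libraries at 24.6, 27.2 and 6.12, LL37 + RAPA libraries at 9.01, 13.4 and 16.7 and control + RAPA libraries at 4.23, 19.2 and 10.2. LL37 replicate 3 lay just above the highest control library, and the LL37 + RAPA libraries lay within the range of the LL37 libraries. The log2 fold change was 1.98 (standard error 0.57) in LL37 vs control and 2.44 without LL37 replicate 3, but the call was lost without control replicate 2 or without LL37 replicate 1 or 2, with values between 1.69 and 1.85. In LL37 vs LL37 + RAPA it was 0.56 (standard error 0.54), within its error, and 0.99 without LL37 replicate 3.

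The endothelial markers (8 genes) summed to between 302 and 487 CPM across all 12 libraries. Per 1000 CPM of them, Car4 stood at 13.2 ± 2.47 CPM (SD, n = 3) in control skin, 26.3 ± 14.0 in control + RAPA skin, 55.6 ± 31.4 in LL37 skin and 27.9 ± 7.21 in LL37 + RAPA skin. The order of the groups was thus kept relative to endothelium, with ranges of 11.1 to 15.9 in control skin and 20.3 to 80.5 in LL37 skin. The nearest profiles to Car4 were those of G0s2 (0.37), an inhibitor of triglyceride lipase, Sh2d3c (0.49) and Steap4 (0.49), an iron reductase of the cell membrane.

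**Figure D2:**
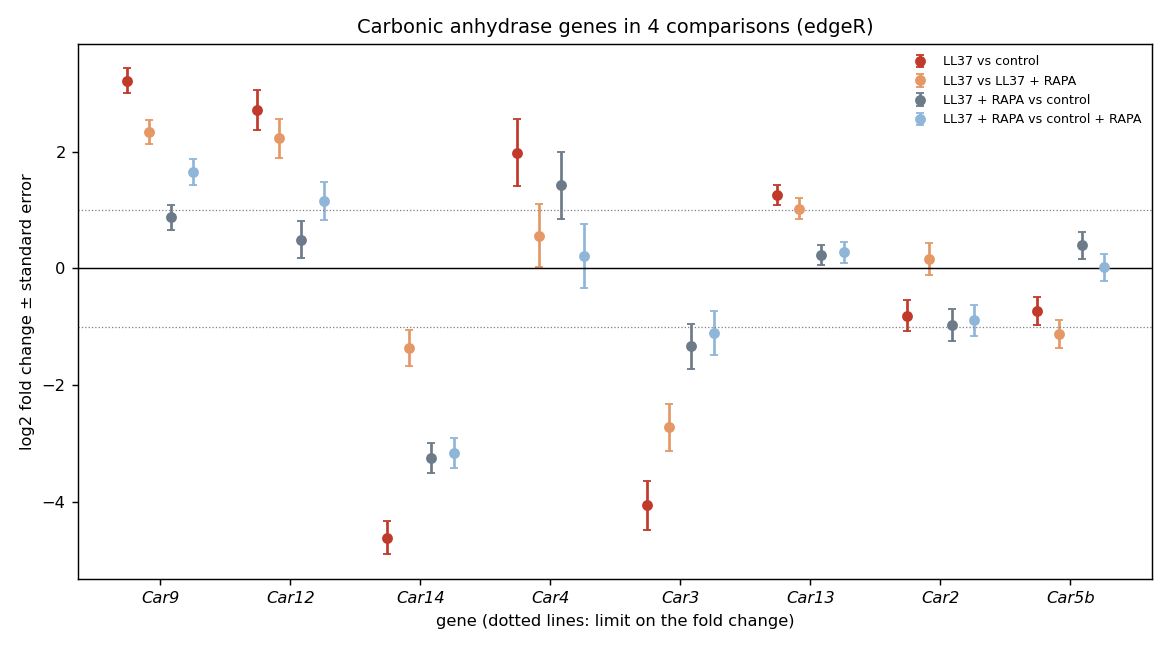
Log2 fold change ± standard error (edgeR, 3 libraries per group) of the 8 carbonic anhydrase genes in 4 comparisons, with dotted lines at the limit of 1 in either direction. Car9 and Car12 lie above 2 and Car14 and Car3 below -4 in LL37 vs control, and Car14 stays near -3 against control when RAPA was given with LL37.

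Car3 (ENSMUSG00000027559, chromosome 3 from 14863512 to 14872523) encodes a cytosolic form with low hydratase activity that makes up a large part of the soluble protein of fat and slow muscle. It was by far the most abundant of the family, with 54618, 40501 and 40485 reads in control skin, 43832, 39626 and 30780 in control + RAPA skin, 1734, 1175 and 5534 in LL37 skin and 19976, 24851 and 19114 in LL37 + RAPA skin. In CPM the groups of LL37 (72.0 to 261), LL37 + RAPA (862 to 1017) and the controls (1772 to 2945 with or without RAPA) did not touch. LL37 skin held 16.7-fold less than control skin (log2 fold change -4.07, standard error 0.42, and -4.81 without LL37 replicate 3) and 6.62-fold less than LL37 + RAPA skin (log2 fold change -2.73, standard error 0.40, and -3.50 without LL37 replicate 3). LL37 + RAPA skin stood at 39.5% of the control mean (log2 fold change -1.34, standard error 0.38). That last call was lost in 9 of the 12 fits that left out a library, with values between -1.44 and -1.16, and in the fit with the replicate number as a block.

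Fat and muscle markers moved with Car3, but not in step with it. The adipocyte sum stood at 21.8 to 44.3% of the control mean in LL37 skin and at 129 to 136% in LL37 + RAPA skin, and the slow muscle markers (6 genes) were low throughout, at 2.07 to 23.2 CPM. Per 1000 CPM of the adipocyte markers, Car3 stood at 967 ± 132 CPM (SD, n = 3) in control skin, 700 ± 351 in control + RAPA skin, 167 ± 57.8 in LL37 skin and 282 ± 30.8 in LL37 + RAPA skin. LL37 + RAPA skin therefore held adipocyte markers above the control mean and Car3 below it, also relative to those markers, with ranges of 252 to 314 against 890 to 1119. Relative to the fast muscle markers Car3 ran the other way, with a mean of 238 CPM per 1000 CPM in LL37 + RAPA skin and 56.3 in control skin, and the groups did not overlap. The profile nearest to Car3 was that of Mlxipl (0.24), which encodes the glucose-sensing transcription factor ChREBP of fat and liver, followed by Neurl1a (0.34) and Sync (0.35), a protein of the muscle intermediate filaments.

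**Figure D3:**
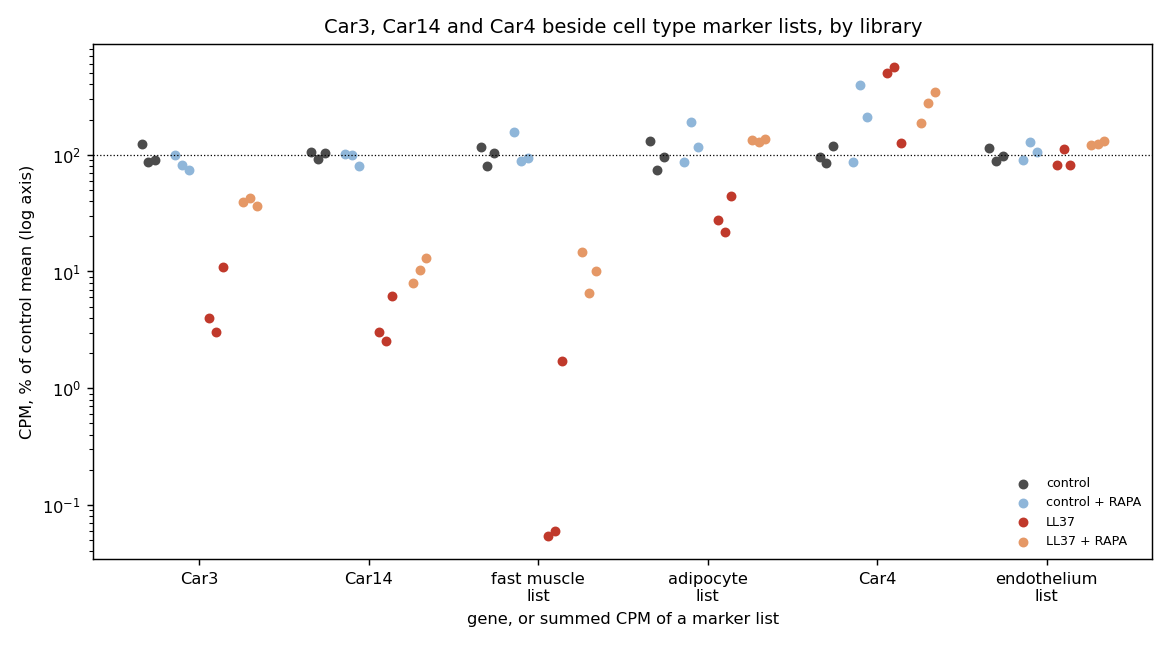
Car3, Car14 and Car4 and the summed CPM of the fast muscle (14 genes), adipocyte (12 genes) and endothelium (8 genes) lists in each library, as a percentage of the control mean (log axis). In LL37 + RAPA skin the adipocyte list lies at 129 to 136% and the fast muscle list at 6.60 to 14.7%, while the endothelium list stays between 81.3 and 131% in all groups.

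Car13 (ENSMUSG00000027555, chromosome 3 from 14641727 to 14663002) encodes a widely expressed cytosolic form. It stood at 38.4, 57.5 and 45.8 CPM in control skin, 147, 97.9 and 94.5 in LL37 skin, 55.3, 59.4 and 51.7 in LL37 + RAPA skin and 47.4, 44.4 and 45.6 in control + RAPA skin. The LL37 libraries lay above all others, whereas LL37 + RAPA overlapped control skin. The log2 fold change was 1.26 (standard error 0.18, and 1.40 without LL37 replicate 3) in LL37 vs control and 1.03 (standard error 0.18) in LL37 vs LL37 + RAPA. The latter fell under the limit, to 0.79, without LL37 replicate 1, to 0.98 without LL37 + RAPA replicate 3 and to 0.98 with scaling by library size only. Its nearest profiles were those of Sap30 (0.11), Pfkp (0.12), which encodes a form of the glycolytic enzyme phosphofructokinase, and Piga (0.14).

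Car2 (ENSMUSG00000027562, chromosome 3 from 14886273 to 14900770) encodes the fast cytosolic form best known from red blood cells, kidney and osteoclasts. It was counted in 125, 82 and 76 reads in control skin, 57, 58 and 40 in LL37 skin, 51, 64 and 57 in LL37 + RAPA skin and 74, 104 and 86 in control + RAPA skin. In CPM both LL37 groups lay below both control groups, and they overlapped each other. The log2 fold change was -0.81 (standard error 0.27, and -0.55 without LL37 replicate 3) in LL37 vs control and 0.16 (standard error 0.27) in LL37 vs LL37 + RAPA. Red blood cell markers (6 genes) summed to 68.9 to 88.2 CPM in LL37 skin and 76.7 to 149 in control skin. Its nearest profiles were those of Qpct (0.17), Synpo (0.18) and Fam220a (0.19).

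Car2, Car3 and Car13 lie close together on chromosome 3, in the same cluster as Car1, and moved in different directions. In LL37 skin Car13 was above, and Car3 and Car2 below, every control library. Car1, which lies between Car13 and Car3 on the other strand, was counted in at most 10 reads in any library and did not pass the filter.

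Car5b (ENSMUSG00000031373, chromosome X from 163976822 to 164027997), whose window held 5 hypoxia cores, encodes a mitochondrial form that supplies bicarbonate to biosynthetic carboxylases. It stood at 24.9, 17.2 and 20.5 CPM in control skin, 12.6, 9.80 and 15.3 in LL37 skin, 27.7, 29.0 and 25.9 in LL37 + RAPA skin and 18.7, 37.1 and 25.6 in control + RAPA skin. The LL37 libraries were the lowest of the 12, and the LL37 + RAPA libraries lay above all control libraries. The log2 fold change was -0.73 (standard error 0.24) in LL37 vs control, under the limit, and -1.13 (standard error 0.24) in LL37 vs LL37 + RAPA, where it fell to -0.97 without LL37 replicate 2 and rose in size to -1.29 without LL37 replicate 3. Per 1000 CPM of the adipocyte markers it stood at 8.46 ± 0.886 CPM (SD, n = 3) in control skin, 8.34 ± 0.546 in control + RAPA skin, 8.22 ± 0.690 in LL37 + RAPA skin and 16.6 ± 2.49 in LL37 skin. Relative to the endothelial markers Car5b ran the other way, at 23.8 to 50.7 in LL37 skin and 52.3 to 59.1 in control skin. Relative to the fast muscle markers it stood at 21.1 to 546 in LL37 skin and 0.470 to 0.504 in control skin. The ranges of these groups overlapped relative to the slow muscle markers. Control + RAPA replicate 2, which was the highest of its group in Car5b and Car4, also held the highest adipocyte sum, at 191% of the control mean. The nearest profiles to Car5b were those of Dapk1 (0.15), Rgcc (0.16) and Sik2 (0.17).

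Among the 8 genes themselves, the profiles of Car9 and Car12 were the closest pair, with a root mean square difference of 0.37 on the log2 scale over the 12 libraries, and Car12 was also the third nearest of all compared genes to Car9. The next pair was Car2 and Car5b at 0.64. That difference was larger than the spread of either gene over the 12 libraries, at 0.49 for Car2 and 0.53 for Car5b. The nearest profiles to Car9 were otherwise those of Lrrc4 (0.35) and Lst1 (0.35), and those nearest to Car12 were Rbp2 (0.31), Kcnh1 (0.36) and Inhba (0.37), a subunit of activin.

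Per kilobase of exon, the summed level of the 16 family genes was 882 ± 167 RPKM (SD, n = 3) in control skin, 761 ± 107 in control + RAPA skin, 155 ± 26.3 in LL37 skin and 382 ± 27.6 in LL37 + RAPA skin. Without Car3, LL37 skin stood highest rather than lowest. The sums were then 49.8 ± 3.11, 50.9 ± 3.79, 106 ± 21.7 and 52.9 ± 1.89 RPKM in the same order of groups. Libraries of the groups other than LL37 overlapped, at 46.3 to 55.1 RPKM, and those of LL37 skin lay at 86.6 to 129. Car3 made up 94.2% of the family's RPKM in control skin, 93.2% in control + RAPA skin, 86.1% in LL37 + RAPA skin and 30.5% in LL37 skin, where the single libraries ranged from 19.9 to 51.2%. In LL37 skin Car13 made up 32.1%, Car12 18.8%, Car4 6.81% and Car9 5.72% of it. The family's RPKM in LL37 skin was thus spread over several forms, of which Car12, Car4 and Car9 face the outside of the cell.

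Only the 8 chosen genes are ranked here, and other genes of the family lay between and below them. In control skin the level per length was highest for Car3 at 832 RPKM, followed by Car13 at 20.5, Car14 at 5.67 and Car12 at 4.29. Car5b at 3.29, Car4 at 2.47, Car2 at 2.06 and Car9 at 0.930 came next. The ranges of neighbours from Car14 down to Car2 overlapped, while Car3, Car13 and Car9 stood clear of their neighbours. In LL37 skin the order was Car3 at 49.7 RPKM and Car13 at 49.2, which overlapped, then Car12 at 28.3, Car4 at 9.82 and Car9 at 8.68, of which the last 2 overlapped, and then Car5b at 1.98, Car2 at 1.18 and Car14 at 0.223. Among the 8, Car9 thus moved from the last place to the fifth, and Car14 from the third to the last. In LL37 + RAPA skin the level per length of Car9 was 1.71 RPKM and that of Car14 0.591, in the sixth and the last place of the 8.

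**Figure D4:**
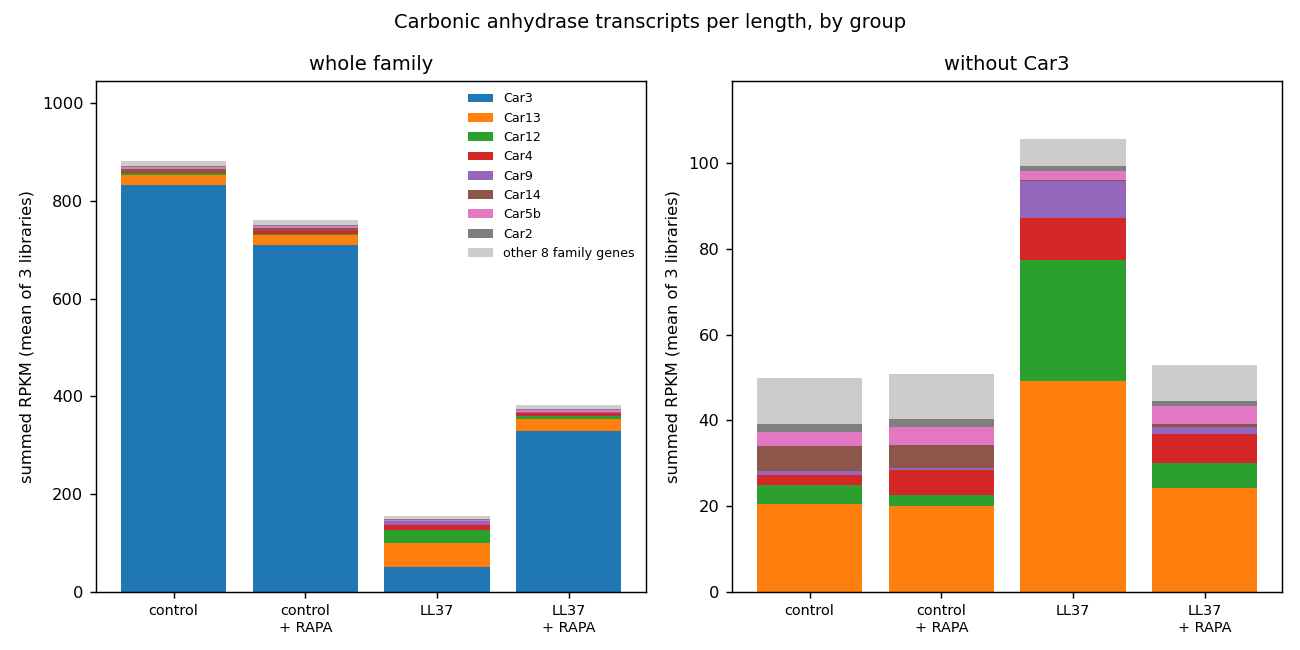
Summed RPKM of the carbonic anhydrase family by group (means of 3 libraries, stacked by gene), with Car3 on the left and without it on the right on a smaller scale. The whole sum is 882 RPKM for control mice and 155 for LL37 mice, and the sum without Car3 is 106 RPKM in LL37 skin against 49.8 to 52.9 in the other groups.

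Rapamycin in LL37 skin was compared by LL37 vs LL37 + RAPA, in which 3 of the 8 genes were called higher in LL37 skin (Car9, Car12 and Car13) and 3 lower (Car3, Car14 and Car5b). Over all tested genes, 4.33% were called higher, 5.80% lower and 10.1% in either direction, and the libraries did not overlap for 6 of the 8 genes and for 38.3% of all. Without LL37 replicate 3 the log2 fold change was 2.38 for Car9, 2.44 for Car12, 1.14 for Car13, -1.88 for Car14 and 0.39 for Car2 in this comparison, and that of Car5b against control was -0.87. The same LL37 libraries enter this comparison and LL37 vs control, so the values of both are not independent. LL37 + RAPA vs control compares groups without the LL37 libraries, which still enter the estimate of the spread shared by all comparisons. It gave 2 calls among the 8, Car14 and Car3, both lower, where 6.49% of all tested genes were called. In that comparison the log2 fold changes of the other 6 were 1.42 for Car4, 0.88 for Car9, 0.49 for Car12, 0.40 for Car5b, 0.23 for Car13 and -0.97 for Car2.

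LL37 + RAPA vs control + RAPA compares none of the libraries of LL37 vs control, but the fit of all 12 libraries set the spread for both. It gave 3 calls among the 8, where 8.39% of all tested genes were called. Car9 and Car12 were higher in the LL37 + RAPA group, at 1.65 and 1.16 on the log2 scale, and Car14 was lower, at -3.16 (standard error 0.25). Car3 stood at -1.11 (standard error 0.38) and was not called, although it was called in DESeq2, with the filter of 1 count in total, with only the compared groups fitted and without LL37 replicate 2 or 3, at -1.10 to -1.08. RAPA without LL37 gave 0 calls among the 8 and 0% among all tested genes in edgeR (unadjusted p under 0.05 in 1 of the 8 and in 1556 of all, and 53 calls over all genes in DESeq2, none of them in the family). The log2 fold changes of the 8 in control + RAPA vs control ran from -0.77 for Car9 to 1.21 for Car4, the latter with a standard error of 0.57.

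In edgeR's interaction, the effect of RAPA in LL37 skin less that in control skin, 2 of the 8 genes were called, as were 2.38% of all tested genes, and since these genes were chosen with such values known this is a description. Car3 had an interaction of 2.95 on the log2 scale (standard error 0.54), with RAPA raising it in LL37 skin, and Car9 one of -1.57 (standard error 0.31). Both calls depended on single libraries by their adjusted p, while the differences stayed at 2.73 to 3.02 for Car3 and -1.54 to -1.44 for Car9 in the fits that lost the call, and without LL37 replicate 3 they were 3.73 and -1.61. The count among the 8 was 0 without control replicate 1, LL37 replicate 1, LL37 + RAPA replicate 1 or 3, or control + RAPA replicate 3. It was 1 without control + RAPA replicate 1 or 2. Without LL37 replicate 3 it was 6, with Car4, Car12, Car13 and Car14 also called. Of the genes not chosen, Car6 and Car11 were called in that fit as well. The share of all tested genes called there is not given here, so nothing about the 8 is read from that count.

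Of the 8 family genes that were not chosen, Car1, Car5a and Car10 did not pass the filter. Car8, an inactive relative that binds the inositol trisphosphate receptor, was lower in LL37 skin (0 to 6 reads per library) than in control skin (40 to 68 reads), at a log2 difference of -3.73 (standard error 0.65, adjusted p = 0.000897, edgeR). It was also lower in LL37 + RAPA skin than in control skin, at -3.27 (adjusted p = 0.00383, edgeR), and did not differ detectably between the LL37 groups, at -0.46 (standard error 0.79, adjusted p = 0.707, edgeR).

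Car11, a secreted relative without activity, and Car7, a cytosolic form of brain, stood lower in LL37 than in control skin by less than the limit. The log2 fold change was -0.97 for Car11 (adjusted p = 0.0185, edgeR) and -0.82 for Car7 (adjusted p = 0.0337, edgeR). Car6, the secreted form of saliva, and Car15, a membrane form that overlaps Gm20518 on the same strand, did not differ detectably, at -0.37 for Car6 (adjusted p = 0.635, edgeR) and 0.10 for Car15 (adjusted p = 0.882, edgeR). Car6 rested on LL37 replicate 3, which held 265 reads against 63 and 15 in LL37 replicates 1 and 2. Without it the log2 fold change of Car6 was -1.71 (adjusted p = 0.00293, edgeR) and that of Car11 -1.42 (adjusted p = 0.000368, edgeR). Without the same library Car8 had -3.88, Car15 0.36 and Car7 -0.86, the last no longer past the adjusted p (0.0626, edgeR). Over the whole family, 7 of the 13 genes that passed the filter were called in LL37 vs control, 4 higher and 3 lower (19.5% of all tested genes were called), and 6 in LL37 vs LL37 + RAPA, 3 in each direction (10.1% of all). Of the 7, 6 are genes chosen for their changes, as are all of the 6, so these counts are not independent of the choice.

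Bicarbonate transporters gave 3 calls among 9 tested of 14 in LL37 vs control, where 19.5% of all tested genes were called, with a median log2 fold change of -0.57 against 0.00 over all tested genes. Slc4a8, a sodium-driven chloride/bicarbonate exchanger, was higher in LL37 skin (log2 fold change 2.44, adjusted p = 0.000279, edgeR), while the sodium bicarbonate cotransporter Slc4a4 (-1.27, adjusted p = 0.00454, edgeR) and the anion exchanger Slc4a3 (-1.09, adjusted p = 0.000303, edgeR) were lower. Against LL37 + RAPA, Slc4a8 was again higher (1.60, adjusted p = 0.0074, edgeR) and Slc4a3 lower (-1.08, adjusted p = 0.00182, edgeR).

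Proton and lactate transporters gave 6 calls among 13 in LL37 vs control, 3 in each direction, with a median of 0.04, where 8.73% of all tested genes were called higher and 10.8% lower. The lactate exporter Slc16a3 (1.96, adjusted p = 0.00143, edgeR) and the monocarboxylate transporter Slc16a1 (1.16, adjusted p = 0.00254, edgeR) were among those higher in LL37 skin. Lower were the exchangers Slc9a2 (-3.59, adjusted p = 9.36e-06, edgeR) and Slc9a3 (-2.05, adjusted p = 0.0106, edgeR) and the monocarboxylate transporter Slc16a8 (-1.93, adjusted p = 0.00136, edgeR). Against LL37 + RAPA, Slc16a3 was higher in LL37 skin by 3.05 (adjusted p = 0.00129, edgeR), above the values of Car9 and Car12 in that comparison.

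The hypoxia list holds 30 genes known as targets of hypoxia-inducible factors, without carbonic anhydrases, and all 30 passed the filter. In LL37 vs control 14 were called higher and 1 lower, where 8.73% of all genes were called higher, and the median log2 fold change was 0.85. The oxidase Ero1l (2.44, adjusted p = 3.91e-06, edgeR), the glucose transporter Slc2a1 (2.26, adjusted p = 4.27e-05, edgeR) and the oxygen sensor Egln3 (1.90, adjusted p = 7.47e-06, edgeR) rose most. Aldoa, the aldolase that muscle also expresses strongly, was lower (-2.60, adjusted p = 1.92e-06, edgeR) in skin whose muscle markers were lower as well.

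Against LL37 + RAPA, 15 of the 30 were called higher in LL37 skin and 0 lower, with a median of 1.00, where 4.33% of all genes were called higher. An unadjusted p under 0.05 was reached by 25 of the 30 and by 6838 of all 17993 genes. For LL37 + RAPA the median was 0.04 against control, with 0 called higher and 4 lower (Aldoa, Hk2, Ldha and Tpi1). There 6.49% of all tested genes were called. The adjusted p alone was passed by 9 of the 30 and by 2527 of all 17993 genes. Against control + RAPA the median was -0.01, with 1 called higher (Loxl2) and 3 lower (Aldoa, Hk2 and Bnip3). Over all tested genes 8.39% were called. The adjusted p alone was passed by 13 of the 30 and by 3338 of all 17993 genes. The genes beyond Aldoa are named here after their values were seen. In the interaction test 9 of the 30 were called, where 2.38% of all tested genes were. All 9 went in the direction of Car9, that is, lowered by RAPA more in LL37 than in control skin. Car9 and Car12 thus stood with the part of this list that was highest in LL37 skin and lower with RAPA, and above each of its 30 genes in both comparisons, as a description of genes chosen for these changes.

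**Figure D5:**
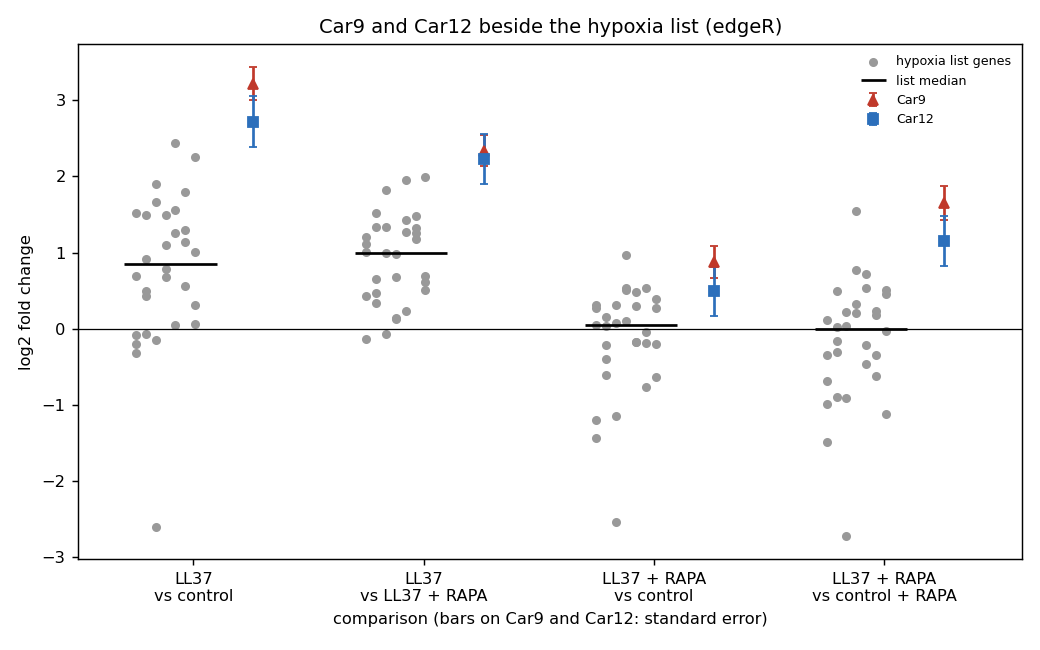
Log2 fold changes of the 30 hypoxia list genes (grey points, with the list median as a line) beside those of Car9 and Car12 (with standard errors) in 4 comparisons. The list median is 0.85 in LL37 vs control, 1.00 in LL37 vs LL37 + RAPA, 0.04 in LL37 + RAPA vs control and -0.01 in LL37 + RAPA vs control + RAPA, and Car9 lies above the whole list in all of them except LL37 + RAPA vs control.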

How the data were processed

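Whole skin of 4 groups of mice was sequenced in 12 libraries. The authors counted paired-end reads on genes and deposited the raw read count of each Ensembl gene in each library, not normalized and not pooled. The methods name HTSeq for the counting, and the submitters' processing notes list HISAT2 2.0.5, StringTie 1.3.3b, featureCounts 1.5.0-p3 and the build mm10 without saying what each did. The setting for strand is not given in the sources used here.

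All 12 libraries were fitted together in R 4.3.3 with edgeR 4.0.16 (filterByExpr by group, TMM, quasi-likelihood F-test), in 5 comparisons of groups and the interaction of LL37 and RAPA. A standard error is the log2 fold change divided by the root of F. CPM values were TMM-normalized, and RPKM divides them by the exon length of GENCODE M21 (GRCm38), in which 52403 of 52636 rows had a symbol. Neighbours in profile had a mean of at least 1 CPM, and log2 CPM used a prior count of 2. Depth ranged from 15734559 to 23271784 counts, and the lowest floor of 3 counts was 0.123 CPM. Pairs of libraries within a group differed by a mean chi-square per gene of 13.2 to 65.4, so no library was a copy of another.

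The carbonic anhydrase genes, the gene lists and the tests were chosen with earlier results of these data known. Genes outside the family are named by a rule: the 3 called genes with the largest change in each direction of each list in LL37 vs control, and the 3 nearest profiles of each chosen gene. A gene that this rule names is not reported here. Alternatives were DESeq2 1.42.0 and its size factors, library size only, muscle and fat genes removed before scaling, filters of 1 count in total or 10 in every library, no limit on the fold change, the compared groups only, a replicate block, and each library left out. The calls were checked on simulated data with 200 changed genes.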

Additional observations from a re-analysis of the deposited data

Results flagged for a closer look

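For 2 of the 8 chosen genes the change with RAPA differed between LL37 and control skin past the calling limits of edgeR's interaction, given here as a description because the genes were chosen with such values known. Car3 was raised by RAPA more in LL37 than in control skin, with a difference of 2.95 on the log2 scale, and its group means were 142 CPM without and 942 CPM with RAPA in LL37 skin and 2385 and 2035 CPM in control skin. Car9 was lowered by RAPA more in LL37 than in control skin, with a difference of -1.57, and its libraries stood at 18.9 to 20.8 CPM without and 3.27 to 4.79 CPM with RAPA in LL37 skin, and at 1.69 to 2.74 and 1.04 to 1.44 CPM in control skin. Of all 17993 genes, 429 passed the same limits. With each library left out in turn, Car3 lost the call in 6 of 12 fits, with differences of 2.73 to 3.02, and Car9 in 6 of 12, with -1.54 to -1.44.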

How the results depend on the processing

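No direction of a called carbonic anhydrase gene turned under any alternative that was run. Among the 8 chosen genes, the 6 calls of LL37 vs control and the 6 of LL37 vs LL37 + RAPA ranged from 5 to 6 with a library left out. The 2 calls of LL37 + RAPA vs control became 1 with at least 10 counts in every library (which removes Car14), 4 without a limit on the fold change and 1 with the replicate block, and ranged from 1 to 3 with a library left out. The 2 calls of the interaction became 4 with the filter of 1 count in total and 4 in DESeq2, 1 with the replicate block, and ranged from 0 to 6 with a library left out. Over the whole family, the 7 calls of LL37 vs control became 11 without the fold change limit. The adjusted p alone was passed by 7668 of all 17993 genes in LL37 vs control. For LL37 vs LL37 + RAPA that number was 4359, and for LL37 + RAPA vs control it was 2527. The family's 3 calls of LL37 + RAPA vs control became 1 with the 10-count filter and 6 without the limit, its 4 calls of LL37 + RAPA vs control + RAPA became 2 with the 10-count filter, and its 2 calls of the interaction became 4, 4 and 1 in the same order as above and ranged from 0 to 8. The 3 bicarbonate transporter calls of LL37 vs control became 6 without the limit and ranged from 2 to 5 with a library left out, and those against LL37 + RAPA ranged from 1 to 3. The 3 proton and lactate transporter calls against LL37 + RAPA became 8 without the limit and ranged from 1 to 5, and the 15 hypoxia list calls of that comparison became 24. The cause of these shifts was not tested, other than the dropped limit and the removed gene. For the fits that left out a library, the share of all tested genes called is not given here.

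Replicate numbers did not pair the libraries: over 18 same-numbered pairs the correlation of deviations from the group means ran from -0.19 to 0.26, with 4 over 0.1, and 1 library correlated best with its own number in every other group. With the replicate block, the interaction gave 199 calls over all genes in place of 429. Scaling by library size only shifted the median log2 fold change of all genes by 0.13 in LL37 + RAPA vs control and 0.18 in LL37 + RAPA vs control + RAPA, and moved the share of higher genes among the calls from 33.0 to 44.6% and from 48.5 to 62.7%. The called carbonic anhydrase genes kept their directions under it. Depth limited Car7, Car8, Car14 and Car15, which held under 20 reads in each LL37 library.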
